A study of Mus musculus with 10 samples.

Results

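The Cyp3a genes encode cytochrome P450 enzymes of mouse liver that oxidise drugs and steroids. The 8 genes described here, Cyp3a11, Cyp3a13, Cyp3a16, Cyp3a25, Cyp3a41a, Cyp3a41b, Cyp3a44 and Cyp3a59, were taken by symbol from a table of 54532 genes, and all 8 were among the 14244 genes tested. The other 3 Cyp3a rows of the table held few counts: Cyp3a63-ps had 0 to 22 per library, Cyp3a57 had 0 to 6 and Cyp3a61-ps1 had 0 in every library. RNA was sequenced from livers of mice given napabucasin (BBI608) by gavage each day for 7 days at 20 mg per kg body weight (5 libraries), and from livers of mice given the carrier alone, 1% NaCMC, on the same schedule (5 libraries, called vehicle). Napabucasin is a small molecule developed in oncology as an inhibitor of STAT3-dependent transcription. The labels name biological replicates and give neither strain, age nor sex, and the question asked of the livers was which genes differ after the drug.

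CYP3A enzymes are haem proteins of the endoplasmic reticulum that receive their electrons from the reductase encoded by Por. Their genes are known targets of the xenobiotic receptors PXR (Nr1i2) and CAR (Nr1i3), which bind foreign chemicals and raise the transcription of drug-metabolizing enzymes. In mice, Cyp3a11 is the member best known for induction by PXR ligands, Cyp3a13 is known from both liver and intestine, Cyp3a16 is known as a form of fetal and newborn liver, and Cyp3a41 and Cyp3a44 are known to be made more in female than in male liver.

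All 8 genes lie on chromosome 5 of GRCm38 and have 13 exons each. Cyp3a13 stands apart at chr5:137892932-137921619 on the minus strand. The other 7 form a cluster, from Cyp3a16 at chr5:145436309-145469723 through Cyp3a41b (chr5:145558664-145584730), Cyp3a41a (chr5:145694049-145720136), Cyp3a44 (chr5:145773983-145805874), Cyp3a11 (chr5:145854426-145879964) and Cyp3a25 (chr5:145977194-146009618), all on the minus strand, to Cyp3a59 on the plus strand (chr5:146079257-146113287). The coding sequences of Cyp3a41a and Cyp3a41b were 99.9% identical, those of Cyp3a25 and Cyp3a59 97.5%, and those of Cyp3a41a and Cyp3a44 95.8%. That of Cyp3a11 was 95.2% identical to Cyp3a41a and 94.9% to Cyp3a44. That of Cyp3a16 was less like them, at 92.7% and 92.4%. Cyp3a13 was between 74.7% and 76.5% identical to each of the others.

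This likeness limits which counts can be given to 1 gene. Of all stretches of 100 bases in the coding transcript, 90.8% in Cyp3a41a and 88.2% in Cyp3a41b occurred exactly in a transcript of another gene, chiefly each other. The share was 6.05% in Cyp3a25, 5.61% in Cyp3a59, 5.37% in Cyp3a44, 0.312% in Cyp3a11, 0.123% in Cyp3a16 and 0% in Cyp3a13. The sources used here do not say how reads matching several genes were counted. The division of counts between Cyp3a41a and Cyp3a41b is therefore uncertain, and their sum is given beside them.

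The promoters of 6 members are shown. By promoter identity, though not by coding identity, Cyp3a16, Cyp3a41a and Cyp3a44 form one set that leaves out Cyp3a11. Cyp3a25 and Cyp3a59 form another. Genes within each set also varied together across the livers, and some of them share stretches of transcript. The part of promoter likeness or of shared reads in that variation was not tested. Cyp3a11, the member with the highest level, is shown beside these sets. Each is the 250 bases before the gene's start in RefSeq on GRCm38.p6, written 5′ to 3′ on the gene's own strand. Capitals mark ATCAAT, a core sequence bound by HNF6 (Onecut1), and AGGTCA, a half-site of nuclear receptors, each searched on both strands.
Cyp3a16 (chr5:145469724-145469973, minus strand): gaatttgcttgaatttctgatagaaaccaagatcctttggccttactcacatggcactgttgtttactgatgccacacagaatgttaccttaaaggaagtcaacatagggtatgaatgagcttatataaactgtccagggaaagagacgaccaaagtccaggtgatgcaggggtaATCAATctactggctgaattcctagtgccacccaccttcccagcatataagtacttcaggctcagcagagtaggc
Cyp3a41a (chr5:145720137-145720386, minus strand): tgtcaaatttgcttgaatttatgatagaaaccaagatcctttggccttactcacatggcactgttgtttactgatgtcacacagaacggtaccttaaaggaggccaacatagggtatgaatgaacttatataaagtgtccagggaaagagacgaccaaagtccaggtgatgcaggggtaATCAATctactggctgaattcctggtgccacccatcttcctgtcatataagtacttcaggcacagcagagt
Cyp3a44 (chr5:145805875-145806124, minus strand): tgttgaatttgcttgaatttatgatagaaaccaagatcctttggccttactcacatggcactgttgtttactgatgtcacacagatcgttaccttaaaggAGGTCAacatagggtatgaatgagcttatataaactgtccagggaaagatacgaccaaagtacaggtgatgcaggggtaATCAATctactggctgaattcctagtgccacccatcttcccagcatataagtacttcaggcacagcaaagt
Cyp3a25 (chr5:146009619-146009868, minus strand): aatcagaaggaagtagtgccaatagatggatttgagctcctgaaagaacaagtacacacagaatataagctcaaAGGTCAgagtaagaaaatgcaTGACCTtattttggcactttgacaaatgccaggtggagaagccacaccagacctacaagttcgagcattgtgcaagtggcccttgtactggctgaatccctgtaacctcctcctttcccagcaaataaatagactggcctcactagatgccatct
Cyp3a59 (chr5:146079008-146079257, plus strand): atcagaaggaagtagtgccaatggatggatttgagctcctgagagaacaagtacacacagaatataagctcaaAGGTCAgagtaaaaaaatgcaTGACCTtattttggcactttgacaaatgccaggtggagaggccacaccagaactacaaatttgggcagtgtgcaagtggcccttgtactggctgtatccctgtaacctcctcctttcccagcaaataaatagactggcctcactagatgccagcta
Cyp3a11 (chr5:145879855-145880104, minus strand): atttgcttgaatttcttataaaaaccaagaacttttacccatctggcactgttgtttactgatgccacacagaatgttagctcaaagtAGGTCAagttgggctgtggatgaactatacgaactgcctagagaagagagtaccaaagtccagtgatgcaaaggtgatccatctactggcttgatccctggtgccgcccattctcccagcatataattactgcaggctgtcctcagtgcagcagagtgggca

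Over windows of 300 bases, the 250 shown and the first 50 of the transcript, the promoters of Cyp3a41a and Cyp3a41b were 97.3% identical, those of Cyp3a25 and Cyp3a59 95.7%, those of Cyp3a16 and Cyp3a44 93.4%, and those of Cyp3a41a and Cyp3a44 93.0%. The promoter of Cyp3a11 was 74.8% identical to that of Cyp3a16 and 51.4% identical to that of Cyp3a25. ATCAAT was found in Cyp3a16 at base -75 and in Cyp3a41a, Cyp3a41b and Cyp3a44 at base -71, counted from the start, and in 7.76% of 27025 mouse promoters of the same length. AGGTCA was found in Cyp3a11 at -162, in Cyp3a44 at -150, in Cyp3a25 at -176 and -155, and in Cyp3a59 at -177 and -156, and in 16.0% of all promoters. The palindrome TTCNNNGAA, recognised by STAT factors, occurred in 8.47% of all promoters, and TTANGTAA, recognised by the clock-driven factors Dbp, Tef and Hlf, in 2.34%; neither string occurred in these windows of the 8 members. The motifs were searched separately, with overlaps allowed.

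The 10 libraries held 15364342 to 17369118 counts in the napabucasin group and 14124484 to 17759967 in the vehicle group. Mitochondrial genes took 9.03% to 19.9% of counts in napabucasin livers and 7.03% to 19.02% in vehicle livers, with replicate 1 highest in each group. Ribosomal RNA genes took 0.426% to 1.09% in napabucasin livers and 0.195% to 0.912% in vehicle livers. This share includes the mitochondrial genes mt-Rnr1 and mt-Rnr2, so it overlaps with the mitochondrial share. These 2 genes averaged 2944 and 2749 CPM (counts scaled to library size) in napabucasin livers, and 1905 and 1685 CPM in vehicle livers. Every library had Xist counts (3326 to 13893 in napabucasin livers, 4498 to 10469 in vehicle livers), while 4 Y-linked genes summed to 0 to 3 counts in napabucasin livers and 0 to 6 in vehicle livers. Of the 11 hepatocyte markers tested, 10 had a negative fold change (median log2 fold change -0.29), with summed levels of 82448 to 143806 CPM (counts scaled to library size) in napabucasin livers and 59409 to 171626 CPM in vehicle livers. All 12 lymphocyte markers had a positive one (median 1.25), with sums of 44.1 to 72.1 CPM in napabucasin livers and 22.3 to 27.8 CPM in vehicle livers, and none of either list passed the adjusted threshold. Markers of Kupffer, endothelial and stellate cells were positive in 10 of 10 each (medians 0.65, 0.66 and 0.65), also with none past it. Cholangiocyte markers had 4 positive and 5 negative fold changes among 9 tested (median -0.0037). The 4 erythroid markers tested were positive (median 0.15). The 4 intestinal markers tested (median -0.48) and the 1 pancreatic marker tested (-0.17) were negative. None of these passed the adjusted threshold. In these bulk samples fewer cells of a type and less RNA per cell cannot be told apart, and the part of cell make-up in the Cyp3a values was not tested.

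Cyp3a transcripts were abundant in all 10 livers, and most of the family's level came from 2 genes. The 8 genes together took 0.303% to 0.498% of counts in napabucasin livers and 0.292% to 0.607% in vehicle livers. Their deposited FPKM, a level scaled for gene length and library size, summed to 1099.6 ± 316 in napabucasin livers and 1135 ± 286 in vehicle livers (SD, n = 5 each). Cyp3a11 averaged 516 ± 117 FPKM in napabucasin livers and 573 ± 246 FPKM in vehicle livers. Cyp3a25, a form known from adult liver, averaged 447 FPKM in napabucasin livers and 396 FPKM in vehicle livers. Cyp3a13 followed with 45.6 ± 8.61 FPKM in napabucasin livers and 70.0 ± 22.1 FPKM in vehicle livers, and Cyp3a59 with 67.4 FPKM in napabucasin livers and 40.0 FPKM in vehicle livers. The remaining 4 genes were lower: Cyp3a44 averaged 9.94 FPKM in napabucasin livers and 20.0 FPKM in vehicle livers, Cyp3a41b 9.21 FPKM in napabucasin livers and 13.6 FPKM in vehicle livers. Cyp3a41a averaged 2.09 FPKM in napabucasin livers and 12.1 FPKM in vehicle livers, and Cyp3a16 2.81 FPKM in napabucasin livers and 10.7 FPKM in vehicle livers.

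By mean FPKM, Cyp3a11 lay above Cyp3a25 in both groups whichever gene length was used. The order of this pair within single libraries depended on the length. The deposited length of Cyp3a11, 5093 bases, is the union of its coding transcript of 2344 bases and a second, non-coding transcript. With the deposited length, Cyp3a11 lay above Cyp3a25 in 3 of 5 napabucasin libraries and in 4 of 5 vehicle libraries, and the ranges overlapped. With the coding transcript's length, Cyp3a11 averaged 1120.2 FPKM in napabucasin livers and 1244 FPKM in vehicle livers and lay above Cyp3a25 in 5 of 5 libraries of each group, with ranges that did not overlap. Cyp3a25 lay above the third gene without overlap in both groups, Cyp3a59 in napabucasin livers and Cyp3a13 in vehicle livers. Among the lower genes, the ranges of neighbours overlapped, except that Cyp3a13 lay above Cyp3a44 in every napabucasin library without overlap.

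**Figure D1:**
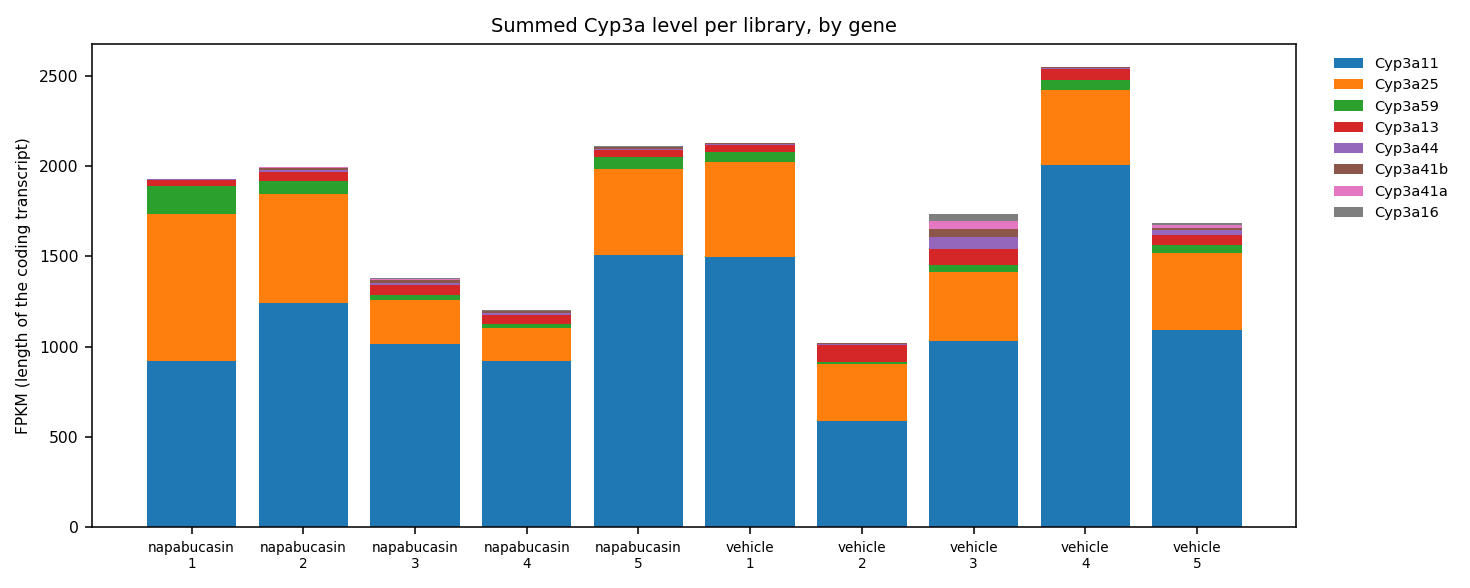
Summed FPKM of the 8 Cyp3a genes in each liver library (vertical axis, over the length of the coding transcript), stacked by gene, with the 5 napabucasin libraries on the left and the 5 vehicle libraries on the right (horizontal axis, replicate number). Cyp3a11 is the largest block in every library; the total runs from 1204 to 2111 FPKM in napabucasin livers and from 1021 to 2549.6 FPKM in vehicle livers, and vehicle replicate 3 shows the widest bands of Cyp3a44, Cyp3a41b, Cyp3a41a and Cyp3a16.

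No Cyp3a gene passed the adjusted threshold between napabucasin and vehicle livers. By edgeR's quasi-likelihood test with Benjamini-Hochberg adjustment over the 14244 genes, none of the 8 members was called at an adjusted p under 0.05, and 0 genes in all were called (0% higher and 0% lower, smallest adjusted p 0.0644). At an unadjusted p under 0.05 edgeR counted 1331 genes higher (9.34%) and 830 lower (5.83%); of the members, Cyp3a13 and Cyp3a41a were among the lower ones and none was among the higher. DESeq2 called 174 genes higher (1.22%) and 68 lower (0.477%) and limma-voom called 98 higher (0.688%) and 34 lower (0.239%), and in both tools no member was among them. The groups' CPM did not overlap for 173 genes higher (1.21%) and 133 genes lower (0.934%), none of them a member. The fitted fold change was negative for 6 members and positive for 2, with a median log2 value of -0.58. Over all genes tested 49.9% were negative and 50.1% positive, with a median of 0.00. The 8 values are not all separate, since Cyp3a16, Cyp3a41a, Cyp3a41b and Cyp3a44 varied together across libraries. Without vehicle replicate 3, Cyp3a41b and Cyp3a44 were positive (0.70 and 0.14), while Cyp3a16 and Cyp3a41a stayed negative (-0.36 and -1.12).

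**Figure D2:**
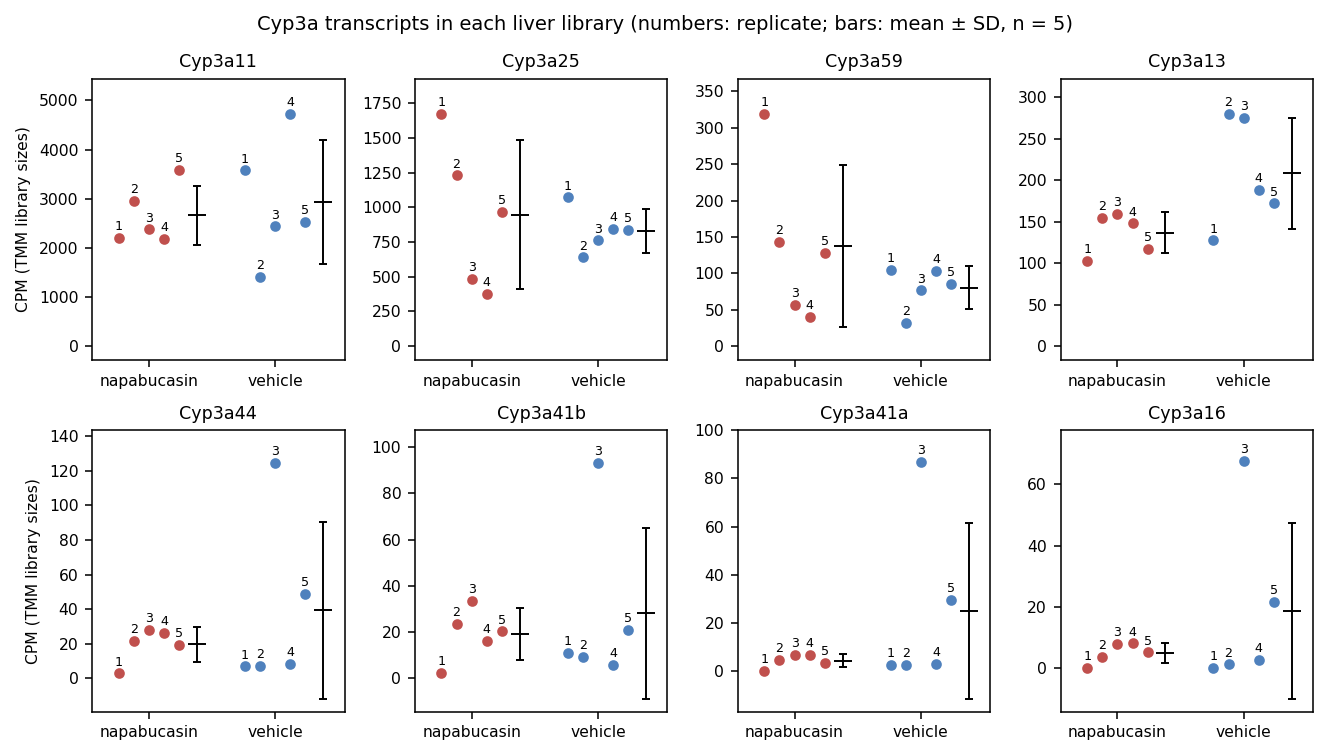
CPM (counts relative to TMM-scaled library size; linear vertical axes that differ between genes) of each Cyp3a gene in every library, napabucasin on the left and vehicle on the right of each panel; points carry the replicate number, and black bars show the mean ± SD of 5 libraries. The groups overlap in all 8 panels; in the lower row vehicle replicates 3 and 5 hold the highest vehicle values, and napabucasin replicate 1 lies lowest in its group.

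Cyp3a11, the member best known for induction through PXR, did not pass the test, at a mean of 2662 ± 604 CPM in napabucasin livers and 2936 ± 1261 CPM in vehicle livers (SD, n = 5 each). It measured 2209.8, 2950.3, 2377, 2182 and 3589 CPM in napabucasin replicates 1 to 5, against 3577, 1413, 2436, 4729 and 2526 CPM in vehicle replicates 1 to 5. All 5 napabucasin livers lay inside the range of the vehicle livers, which held both the lowest and the highest value of the 10. On the log2 scale the difference was -0.14 (SE 0.30; edgeR, adjusted p = 0.832), and its 95% interval, -0.79 to 0.51, corresponds to a level of 0.577 to 1.43 times that of vehicle. Without vehicle replicate 4, the highest library, the fitted log2 fold change was 0.10.

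Cyp3a25 and Cyp3a59, the nearly identical pair at the end of the cluster, were the 2 members with a positive fold change. Cyp3a25 measured 1673, 1229, 485, 379 and 968 CPM in napabucasin replicates 1 to 5, against 1071, 639, 761, 842 and 839 CPM in vehicle replicates 1 to 5. Napabucasin livers lay on both sides of the vehicle livers, with replicates 1 and 2 above the vehicle range, replicates 3 and 4 below it and replicate 5 inside it. The log2 fold change of Cyp3a25 was 0.19 (SE 0.35, 95% interval -0.57 to 0.95; edgeR, adjusted p = 0.803), and it was -0.12 without napabucasin replicate 1. Its standard deviation was 534 CPM in napabucasin livers and 158 CPM in vehicle livers; the difference in spread was not tested.

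Cyp3a59 measured 319, 143, 57.3, 40.4 and 128 CPM in napabucasin replicates 1 to 5, against 105, 31.6, 76.6, 104 and 85.4 CPM in vehicle replicates 1 to 5. Napabucasin replicates 1, 2 and 5 lay above every vehicle liver and replicates 3 and 4 inside the vehicle range, the same 3 libraries that were highest for Cyp3a25 among napabucasin livers. The log2 fold change was 0.77 (SE 0.48, 95% interval -0.25 to 1.80; edgeR, adjusted p = 0.438), and with 1 library left out it ran from 0.19 without napabucasin replicate 1 to 1.01 without napabucasin replicate 4, where edgeR gave an unadjusted p of 0.0381 and an adjusted p of 0.240. Without napabucasin replicates 1 and 2 it was -0.11 for Cyp3a59 and -0.45 for Cyp3a25. Those 2 libraries had the highest shares of ribosomal RNA counts, 1.09% each, and mitochondrial shares of 19.9% and 15.3%. Over the 10 libraries, with group means removed, the mitochondrial share ran with Cyp3a25 (Pearson's r = 0.729) and Cyp3a59 (r = 0.687); its part in their values was not tested.

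Cyp3a13, the member outside the cluster, had the smallest unadjusted p of the 8. It measured 103, 155, 159, 148 and 118 CPM in napabucasin replicates 1 to 5, against 127, 280.1, 275, 188 and 172 CPM in vehicle replicates 1 to 5. All 5 napabucasin livers lay below the vehicle mean and below 4 of the 5 vehicle livers, vehicle replicate 1 being the exception. Within each of the 5 replicate numbers, the napabucasin liver lay below the vehicle liver. The means were 137 ± 24.8 CPM in napabucasin livers and 209 ± 66.9 CPM in vehicle livers (SD, n = 5 each). This is -0.61 on the log2 scale (SE 0.24, 95% interval -1.12 to -0.10; edgeR, unadjusted p = 0.0226 and adjusted p = 0.285). Leaving out 1 library at a time gave log2 fold changes of -0.76 to -0.47, all with an adjusted p above 0.05. The unadjusted p by edgeR was under 0.05 in 6 of these 10 fits. It was 0.0633 by edgeR with all libraries scaled by library size only. The labels do not pair livers by replicate number, and that pairing is a reading of these same data. With the number as a block, the log2 fold change of Cyp3a13 was -0.57 (edgeR, unadjusted p = 0.00736 and adjusted p = 0.121). Its level ran against the mitochondrial share of the libraries (r = -0.734 over 10 libraries with group means removed), a relation whose part in the group difference was not tested.

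The genes of the fetal and female-predominant kind, Cyp3a16, Cyp3a41a, Cyp3a41b and Cyp3a44, had negative fold changes, and their vehicle values were carried by 2 libraries. Cyp3a44 measured 2.93, 21.9, 28.2, 26.1 and 19.4 CPM in napabucasin replicates 1 to 5, against 7.01, 7.44, 124.6, 8.54 and 48.8 CPM in vehicle replicates 1 to 5. Vehicle replicates 3 and 5 lay above every napabucasin liver, whereas napabucasin replicates 2 to 5 lay above the other 3 vehicle livers. The log2 fold change was -0.99 (SE 0.80, 95% interval -2.72 to 0.74; edgeR, adjusted p = 0.543), and 0.14 without vehicle replicate 3.

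Cyp3a41a measured 0.187, 4.54, 6.64, 6.89 and 3.49 CPM in napabucasin replicates 1 to 5, against 2.74, 2.66, 87.0, 2.92 and 29.7 CPM in vehicle replicates 1 to 5. The same 2 vehicle livers stood out, and the other 3 lay below napabucasin replicates 2 to 5. Its log2 fold change was the largest of the 8 in size, -2.51 (SE 1.01, 95% interval -4.71 to -0.31; edgeR, unadjusted p = 0.0285 and adjusted p = 0.298), and it was -1.12 without vehicle replicate 3. Cyp3a41b measured 2.37, 23.5, 33.5, 16.3 and 20.3 CPM in napabucasin replicates 1 to 5, against 10.9, 9.46, 93.3, 6.01 and 20.9 CPM in vehicle replicates 1 to 5. Vehicle replicate 3 lay above all napabucasin livers, and napabucasin replicates 2 to 5 lay above the 3 lowest vehicle livers. The log2 fold change of Cyp3a41b was -0.55 (SE 0.74, 95% interval -2.16 to 1.06; edgeR, adjusted p = 0.721), and 0.70 without vehicle replicate 3.

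Because Cyp3a41a and Cyp3a41b share most of their sequence, their counts were also summed. Cyp3a41a took 7.32% to 29.7% of the summed counts in napabucasin livers and 20.0% to 58.7% in vehicle livers, with the 2 highest shares in vehicle replicates 5 and 3. The sum gave a log2 fold change of -1.17 (SE 0.82; edgeR, unadjusted p = 0.176 and adjusted p = 0.488), so the unadjusted p under 0.05 of Cyp3a41a was not found for the pair.

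Cyp3a16 had 0, 67, 141, 151 and 74 counts in napabucasin replicates 1 to 5, against 1, 25, 950, 45 and 300 counts in vehicle replicates 1 to 5. Its counts in replicate 1 of both groups were at or next to 0, and a count of 3, the limit that a count of 0 allows, corresponds to 0.187 CPM in napabucasin replicate 1. Vehicle replicates 3 and 5 again lay above every napabucasin liver. Its log2 fold change was -1.91 (SE 1.18, 95% interval -4.47 to 0.66; edgeR, adjusted p = 0.441), and -0.36 without vehicle replicate 3. As a share of the family's FPKM, the 4 genes made 0.191% to 4.67% in napabucasin livers and 0.696% to 16.3% in vehicle livers, with the highest share in vehicle replicate 3. With group means removed, the mitochondrial share of the 10 libraries ran against Cyp3a16 (r = -0.813), Cyp3a41a (-0.635), Cyp3a44 (-0.635) and Cyp3a41b (-0.502). The ribosomal RNA share also ran against them, at -0.560, -0.622, -0.604 and -0.485 for the same genes in that order. The 2 shares are not separate measures, since mitochondrial ribosomal RNA counts in both. The part of either share in the values of these genes was not tested. With the replicate number as a block, the log2 fold changes were -1.59 for Cyp3a41a (unadjusted p = 0.0725 by edgeR), -0.64 for Cyp3a16, -0.34 for Cyp3a44 and -0.14 for Cyp3a41b, none past the adjusted threshold. The sum over all 8 members had a log2 fold change of -0.08, with a 95% interval of -0.67 to 0.50.

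**Figure D3:**
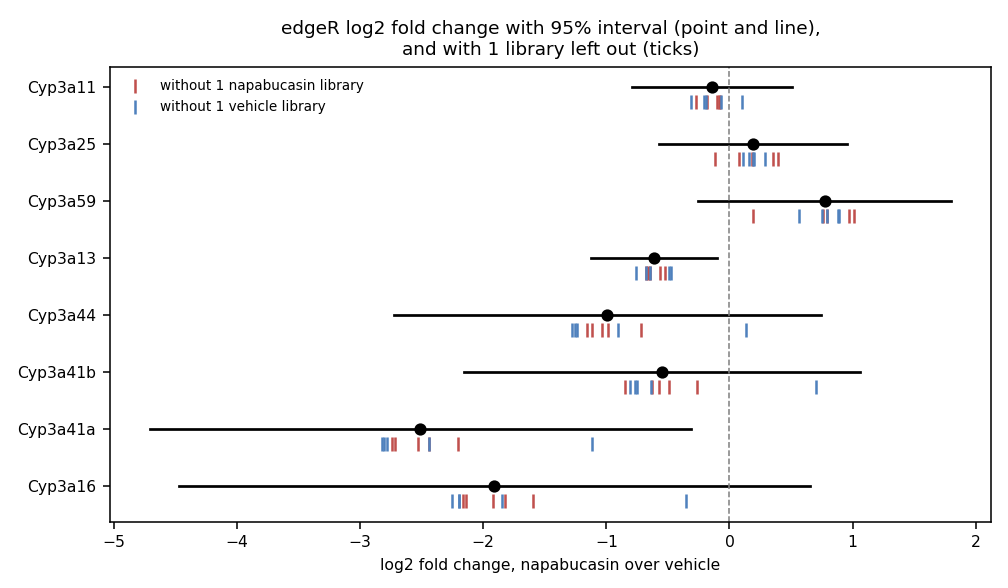
log2 fold change of each Cyp3a gene, napabucasin over vehicle, from edgeR (horizontal axis; points, with lines for the 95% interval), and the same value with 1 library left out at a time (ticks; red for a napabucasin library, blue for a vehicle library). The intervals of Cyp3a13 and Cyp3a41a lie below 0 before adjustment, and the tick farthest to the right for Cyp3a44, Cyp3a41b, Cyp3a41a and Cyp3a16 is the fit without vehicle replicate 3.

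Across libraries the members varied in sets. With group means removed from log2 CPM, Cyp3a41a correlated with Cyp3a44 at r = 0.997, Cyp3a16 with Cyp3a44 at 0.952, Cyp3a41a with Cyp3a41b at 0.938 and Cyp3a16 with Cyp3a41b at 0.844, each over 10 libraries. Without the 2 libraries farthest from the median of the first-named gene of each pair, these values were 0.996, 0.981, 0.838 and 0.850. Cyp3a25 correlated with Cyp3a59 at r = 0.931, and at 0.834 without the 2 farthest libraries. Cyp3a11 correlated with Cyp3a59 at r = 0.504, with Cyp3a25 at 0.326 and with Cyp3a13 at -0.538, and at 0.250, 0.369 and -0.444 without the 2 farthest libraries. With Cyp3a16, Cyp3a41a, Cyp3a41b and Cyp3a44 its r lay between -0.05 and -0.04, and between -0.27 and 0.02 without those 2 libraries. Cyp3a13 ran against Cyp3a59 (r = -0.647) and Cyp3a25 (r = -0.548), and with Cyp3a16 (r = 0.604). These correlations describe libraries that share tissue make-up, depth and, for near-identical genes, reads. Cyp3a16 and Cyp3a44 share no stretch of 150 bases with any other gene's transcript, but 0.123% and 5.37% of their stretches of 100 bases and 10.7% and 26.5% of those of 50 bases; the read length is not given in the labels.

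**Figure D4:**
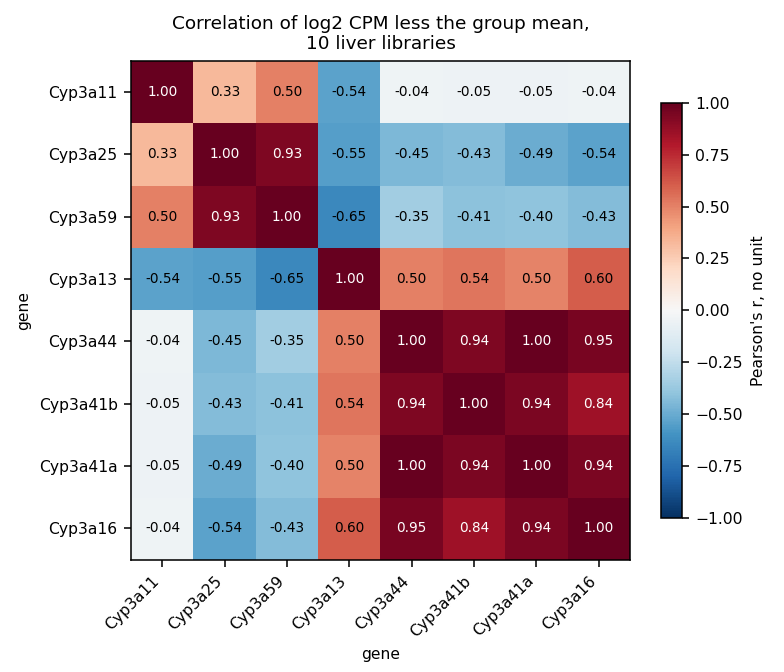
Pearson's r (colour and printed value) between the log2 CPM of each pair of Cyp3a genes over 10 liver libraries, with each group's mean removed; genes run along both axes. Cyp3a44, Cyp3a41b, Cyp3a41a and Cyp3a16 form a block with r from 0.84 to 1.00, Cyp3a25 and Cyp3a59 a pair at 0.93, and Cyp3a11 lies between -0.05 and -0.04 with that block and at 0.50 with Cyp3a59.

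Among 8236 other genes averaging at least 10 CPM, the patterns most like Cyp3a11 over the 10 libraries, with group means removed, were those of Hao2 (r = 0.953), Pde4b (0.895), Cyp2b10 (0.870), mt-Tc (0.864) and H2-Q7 (0.857). Without the 2 farthest libraries these values lay between 0.590 and 0.831. The patterns most like Cyp3a41a were those of Gm10123 (r = 0.940), Snd1 (0.924), Cbr4 (0.913), Azin1 (0.909) and Smim19 (0.907), and between 0.822 and 0.931 without the 2 farthest libraries. These are the highest of many correlations.

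Of the factors known to act on Cyp3a genes, 25 of 27 were tested; 12 had positive and 13 negative fold changes (median log2 fold change -0.04), and none passed the adjusted threshold. Nr1i2, the gene of PXR, averaged 89.8 ± 27.2 CPM in napabucasin livers and 73.5 ± 18.6 CPM in vehicle livers (log2 fold change 0.29; edgeR, adjusted p = 0.542). Nr1i3, the gene of CAR, averaged 47.4 ± 19.6 CPM in napabucasin livers and 42.9 ± 16.4 CPM in vehicle livers (0.15; adjusted p = 0.831). The factors with the smallest p were Dbp and Hlf, output genes of the circadian clock, Onecut1, whose core sequence is marked in the promoters, and Nr0b2, a repressor of other nuclear receptors. Dbp averaged 1.74 ± 0.66 CPM in napabucasin livers and 13.5 ± 9.42 CPM in vehicle livers (log2 fold change -2.95; edgeR, adjusted p = 0.157). The groups overlapped for Dbp, since vehicle replicate 1, at 1.54 CPM, lay below napabucasin replicates 1, 2, 3 and 5. The other vehicle livers held 7.48 to 25.8 CPM. The log2 fold changes of the others were -1.06 for Hlf, -1.17 for Onecut1 and 0.92 for Nr0b2 (edgeR, adjusted p = 0.185, 0.223 and 0.235). The labels give no hour of tissue collection.

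The electron donors and haem enzymes that serve P450 enzymes had 12 negative and 2 positive fold changes among 14 genes (median -0.26), with none past the adjusted threshold. Over all genes tested 49.9% were negative, but so were 10 of the 11 hepatocyte markers tested (median -0.29). The lean was therefore not particular to this list. Por averaged 182 ± 40.0 CPM in napabucasin livers and 282 ± 109 CPM in vehicle livers, or -0.63 on the log2 scale (SE 0.27; edgeR, unadjusted p = 0.0374 and adjusted p = 0.315). Its values overlapped, since vehicle replicate 2 at 136 CPM was the lowest of all. Targets of PXR and CAR outside the family had 15 positive and 20 negative fold changes among 35 tested (median -0.07), none past the threshold. Cyp2b10, the classical CAR target, measured 6.11, 49.6, 7.74, 7.05 and 19.4 CPM in napabucasin replicates 1 to 5, against 15.4, 0.827, 6.68, 26.1 and 16.0 CPM in vehicle replicates 1 to 5. Its groups overlapped widely, and the log2 fold change was 0.47 (95% interval -1.12 to 2.07; edgeR, adjusted p = 0.760).

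Genes other than Cyp3a that are known to be higher in female mouse liver had 15 negative and 5 positive fold changes among 20 (median -0.59), and none passed the adjusted threshold. Genes known to be higher in male liver had 11 negative and 6 positive fold changes among 17 tested (median -0.11), also with none past it, and the difference between these lists was not tested. Of the female-predominant genes, the smallest p was that of Cyp17a1, a steroid hydroxylase, at 20.97 ± 9.88 CPM in napabucasin livers and 85.0 ± 62.1 CPM in vehicle livers (log2 fold change -2.02; edgeR, adjusted p = 0.166). Hao2, an oxidase of hydroxy acids and the gene whose pattern was most like Cyp3a11, was among the 5 with a positive value (log2 fold change 1.14; edgeR, adjusted p = 0.229). It averaged 41.6 ± 12.1 CPM in napabucasin livers and 18.9 ± 10.3 CPM in vehicle livers. The summed level of the female-predominant list was 933 to 1685 CPM in napabucasin livers and 951 to 3047 CPM in vehicle livers.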

How the data were processed

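Poly(A)-selected liver RNA was sequenced, per the labels' protocols. CASAVA, the aligner HISAT2 (2.0.5) and the counter featureCounts (1.5.0-p3) are named with GRCm38 (mm10) by the submitters' processing notes; their strand and multi-mapping settings were not stated there. The deposited gene counts are whole numbers that differ in total between libraries. The deposited FPKM are, per the file headers and values, those counts over gene length and a scaled library size.

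Counts of 14244 genes kept by filterByExpr were tested with edgeR 4.0.16 (TMM, robust quasi-likelihood fit, treatment only, threshold 0.05 after Benjamini-Hochberg adjustment; R 4.3.3), after the script was tested on simulated data. DESeq2 1.42.0, limma 3.58.1 with voom quality weights, log2(FPKM + 1) with limma, other scalings and filters, a replicate block, summed members and left-out libraries were alternatives. CPM use TMM library sizes; log2 CPM for correlations use a prior count of 2. Intervals are 95% and cover the spread between libraries; limits for a count of 0 cover counting error only. Same-numbered libraries deviated together (correlations 0.154 to 0.278 over genes), and the number served as a block in an alternative fit only. That pairing is a reading that comes from the data and not from the labels, and it held in part. The libraries numbered 3, and those numbered 4, were each other's closest partners. Napabucasin replicates 1 and 5 were closest to vehicle replicates 2 and 1, and vehicle replicates 1 and 2 to napabucasin replicates 5 and 1. Nothing says how animals map to libraries beyond "biological replicate".

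The members and the 21 gene lists were chosen with earlier results of these data known. Named from each list described were up to 4 genes with the smallest p and a mean of at least 1 CPM, besides Nr1i2, Nr1i3, Por and Cyp2b10; for likeness, the 5 genes with the highest r. Only lists that bear on Cyp3a genes or tissue make-up are described. Sequence identity came from global alignment (Biopython 1.88) of RefSeq promoters and GENCODE coding sequences. The planned comparison of proteins was replaced by one of coding sequences.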

Additional observations from a re-analysis of the deposited data

Results flagged for a closer look

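Among 30 gene and group combinations examined, 2 held a library that stood apart from the other 4 of its group by Dixon's criterion; chance flags about 1 in 20, or 1.5 of 30. Cyp3a41b in vehicle replicate 3 reached 93.3 CPM, against 6.01 to 20.9 CPM in the other vehicle livers. The same library held the highest Cyp3a16, Cyp3a41a and Cyp3a44 values of all 10. Por in napabucasin replicate 5 reached 252.7 CPM, against 157 to 174 CPM in the other napabucasin livers.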

How the results depend on the processing

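Of the 206 values the members took under the alternatives, 190 kept the direction of the fold change and 16 reversed, and no member was called under any setting. The smallest adjusted p of a member was 0.121 (Cyp3a13, edgeR with the replicate block, log2 fold change -0.57); the block left the count of genes called at 0 and changed no call. The log2 fold change of Cyp3a25 was -0.28 with limma-voom, -0.12 without napabucasin replicate 1, -0.0097 with log2(FPKM + 1), filtered or not, -0.010 with log2(FPKM + 0.1), and, chosen after seeing the data, -0.45 without napabucasin replicates 1 and 2 and -0.0090 without replicate 1 of both groups. That of Cyp3a59 was -0.048 with limma-voom and -0.11 without napabucasin replicates 1 and 2. With limma-voom Cyp3a41b was at 0.51 and Cyp3a44 at 0.013; without vehicle replicate 3 they were at 0.70 and 0.14. Cyp3a11 was at 0.10 without vehicle replicate 4. With 1 library left out at a time, the ranges of these reversing genes were -0.31 to 0.10 for Cyp3a11, -0.12 to 0.39 for Cyp3a25, -0.85 to 0.70 for Cyp3a41b and -1.28 to 0.14 for Cyp3a44; that of Cyp3a59 was 0.19 to 1.01. The sum of all 8 members, at -0.084, counts as a reversal for Cyp3a25 and Cyp3a59. The same value counts as a kept direction for each of Cyp3a11, Cyp3a13, Cyp3a16, Cyp3a41a, Cyp3a41b and Cyp3a44. The sum of Cyp3a41a and Cyp3a41b, and that of these with Cyp3a16 and Cyp3a44, were likewise entered once per gene as kept. The 206 values are therefore not all separate. The genes called over the whole table, 0 with edgeR, were 242 with DESeq2, 132 with limma-voom, 19 with no low-count filter, 1 with library sizes alone, 1 with log2(FPKM + 0.1), 0 to 18 with 1 library left out (3 without napabucasin replicate 5, 18 without vehicle replicate 1) and 7 without replicate 1 of both groups. The cause was not tested. Depth limited Cyp3a16, which had 0 counts in napabucasin replicate 1 and 1 in vehicle replicate 1.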
